A study of Mus musculus with 12 samples.

Results

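The killer cell lectin-like receptors are a family of C-type lectin-like membrane proteins that natural killer (NK) cells and activated CD8+ T cells carry. Of 55487 gene identifiers in the deposited count table, 7 were chosen by their symbol: Klrg1 (ENSMUSG00000030114), Klrd1 (ENSMUSG00000030165), Klrk1 (ENSMUSG00000030149), Klrc1 (ENSMUSG00000030167), Klrc2 (ENSMUSG00000052736), Klre1 (ENSMUSG00000050241) and Klrb1c (ENSMUSG00000030325). RNA of CD8+ T cells from spleens of C57BL/6 mice was sequenced in 12 libraries, 3 in each of 4 groups. The groups were IL-12 with 80%TCM, IL-12 alone, IL-2 with 80%TCM and IL-2 alone, which the sample titles call the control. Every group received either IL-12 or IL-2, none was left without a cytokine, and the labels spell out neither TCM nor the age of the mice nor the length of the culture. The labels do not tell whether the 3 libraries of a group are separate animals, separate cultures or technical repeats, so each p-value refers to the spread among libraries alone.

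All 7 genes lie on mouse chromosome 6, most of them in the NK gene complex. Klrd1 encodes CD94, which has little signalling of its own and pairs with an NKG2 chain. With NKG2A, encoded by Klrc1, it forms an inhibitory receptor, and with NKG2C, encoded by Klrc2, an activating one, and both pairs bind the non-classical class I molecule Qa-1. Klrk1 encodes NKG2D, an activating receptor for stress-induced ligands that costimulates CD8+ T cells. Klrg1 encodes an inhibitory receptor for cadherins that marks short-lived effector CD8+ T cells. Klre1 encodes a chain that pairs with Klri1 or Klri2, and Klrb1c encodes NK1.1, the antigen by which NK cells of C57BL/6 mice are stained.

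Klrc1 and Klrc2 moved together between the cytokines and Klrk1 moved the other way, so their promoters are shown. RefSeq promoters of the GRCm38.p6 build were matched by symbol for 5 of the 7 genes. Each line holds the 250 bases before the annotated start, 5′ to 3′ on the minus strand, which is the strand of all 3 genes. The windows are chr6:129678974-129679223 for Klrc1, chr6:129660597-129660846 for the first of the annotated Klrc2 starts, and chr6:129623865-129624114 for Klrk1. Capitals mark the RUNX motif TGTGGT or its reverse complement ACCACA.
Klrc1: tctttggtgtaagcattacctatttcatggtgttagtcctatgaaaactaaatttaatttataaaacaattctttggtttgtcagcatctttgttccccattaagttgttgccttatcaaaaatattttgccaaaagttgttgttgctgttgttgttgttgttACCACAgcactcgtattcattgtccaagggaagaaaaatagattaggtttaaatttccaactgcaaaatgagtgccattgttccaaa
Klrc2: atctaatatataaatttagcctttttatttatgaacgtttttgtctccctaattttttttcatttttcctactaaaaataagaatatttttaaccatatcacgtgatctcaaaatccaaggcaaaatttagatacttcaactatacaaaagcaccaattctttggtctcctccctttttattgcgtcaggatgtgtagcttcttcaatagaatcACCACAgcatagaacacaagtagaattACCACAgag
Klrk1: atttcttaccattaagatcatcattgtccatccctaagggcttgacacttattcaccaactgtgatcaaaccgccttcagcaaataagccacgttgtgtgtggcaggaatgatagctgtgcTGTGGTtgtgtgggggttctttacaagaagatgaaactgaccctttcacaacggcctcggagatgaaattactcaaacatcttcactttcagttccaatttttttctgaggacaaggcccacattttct

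The first base of the RUNX match lay 87 bases before the start in Klrc1, 36 and 9 bases before it in Klrc2, and 129 bases before it in Klrk1. Klre1 and Klrb1c also held a match in their first window, 229 and 89 bases before the start. On both strands, TGTGGT was present in 14% of all 32851 promoters of the same length. The STAT motif TTCNNNGAA (7.02% of promoters) and the T-box motif GGTGTGA (3.33% of promoters) were not found in the windows of these 5 genes. A match describes the letters only.

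Total counts ran from 19500568 to 26007717 in 10 libraries, and IL-12 replicates 1 and 2 had 49638920 and 42349121. The replicate 3 libraries of both IL-2 groups stood apart from their partners. Within those groups, a chi-square per degree of freedom over genes was 28.5 to 45.4 for pairs with replicate 3, against 2.4 to 5.51 for all other pairs of libraries within a group. Residuals from the group means also correlated between IL-2 80%TCM and IL-2 libraries of the same number (0.43, 0.40 and 0.68 for replicates 1, 2 and 3). Replicates 1 and 2 correlated as much across numbers (0.41 and 0.45), so only replicate 3 is matched by these values. Pairing replicates 1 and 2 by number is an assumption. Results that this changes are given also with a replicate block for the IL-2 groups, which pairs their libraries by number, and without their replicates 3. In comparisons of IL-12 with IL-2, the fit with that block sets IL-12 against the level of replicate 1 of the IL-2 group, not the group mean.

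The label of CD8+ T cells fitted the defining markers. The 7 CD8 T cell marker genes (Cd8a, Cd8b1, Cd3d, Cd3e, Cd3g, Trac, Trbc2) summed to between 3364 and 4128 counts per 1000000 counts (CPM) in every library. The sums of 10 NK cell markers were 91.0 to 97.9 CPM in IL-12 80%TCM, 72.9 to 84.3 in IL-12, 82.9 to 87.5 in IL-2 80%TCM and 68.8 to 77.7 in IL-2 libraries. Most of that sum was Txk, a kinase that T cells express too. Ncr1, which encodes the NK receptor NKp46, averaged 0.172 ± 0.0240, 0.173 ± 0.0416, 0.157 ± 0.156 and 0.155 ± 0.0607 CPM in the same order of groups (SD, n = 3 each), and 5 to 7 of the 10 NK markers were under 1 CPM in each group. Sums of 4 platelet markers were 23.2 to 29.2 CPM in IL-12 80%TCM, 57.6 to 68.4 in IL-12, 41.7 to 53.6 in IL-2 80%TCM and 101 to 125 in IL-2 libraries. Sums over all libraries ran from 16.4 to 33.2 CPM for 4 CD4 and regulatory T cell markers, from 1.58 to 4.15 for 4 B cell markers and from 1.52 to 10.2 for 6 myeloid markers. The part of these other cell types in the results was not tested. In bulk RNA, fewer cells with a transcript and less of it per cell cannot be told apart.

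None of the 7 receptors had a mean under 0.5 CPM over the 12 libraries, the limit below which a gene was to be called too low to judge, and all 7 passed the filter on low counts. The means over 12 libraries were 282 CPM for Klrd1, 215 for Klrk1, 19.9 for Klrc1, 10.1 for Klrc2, 2.09 for Klre1, 1.68 for Klrg1 and 0.622 for Klrb1c. Klrg1 stayed under 0.5 CPM on average in both IL-2 groups and Klrb1c in both IL-12 groups, so each passed the filter only through the groups where it was high. Such a gene had to differ between the cytokines, and its call there adds nothing to a count of receptors called. Per kilobase of exon, Klrd1 was the most abundant of the 7 in every group, with means of 135 CPM per kb in IL-12 80%TCM, 163 in IL-12, 335 in IL-2 80%TCM and 246 in IL-2 libraries. Klrk1 came next at 23.5, 19.6, 42.3 and 34.3 CPM per kb in the same groups, and Klrc1 after it at 13.4, 14.0, 6.98 and 5.71. These values divide by the union of all annotated exons, which for Klrk1 spans 7183 bases against 1281 for Klrd1. The transcripts of Klrc1, Klrc2 and their paralog Klrc3 resemble each other, and the sources used here do not say how the counting split shared reads, so their levels are less certain. Klrb1c shares 413 exonic bases, 13.9% of its exons, with the same-strand gene model Gm44511.

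**Figure D1:**
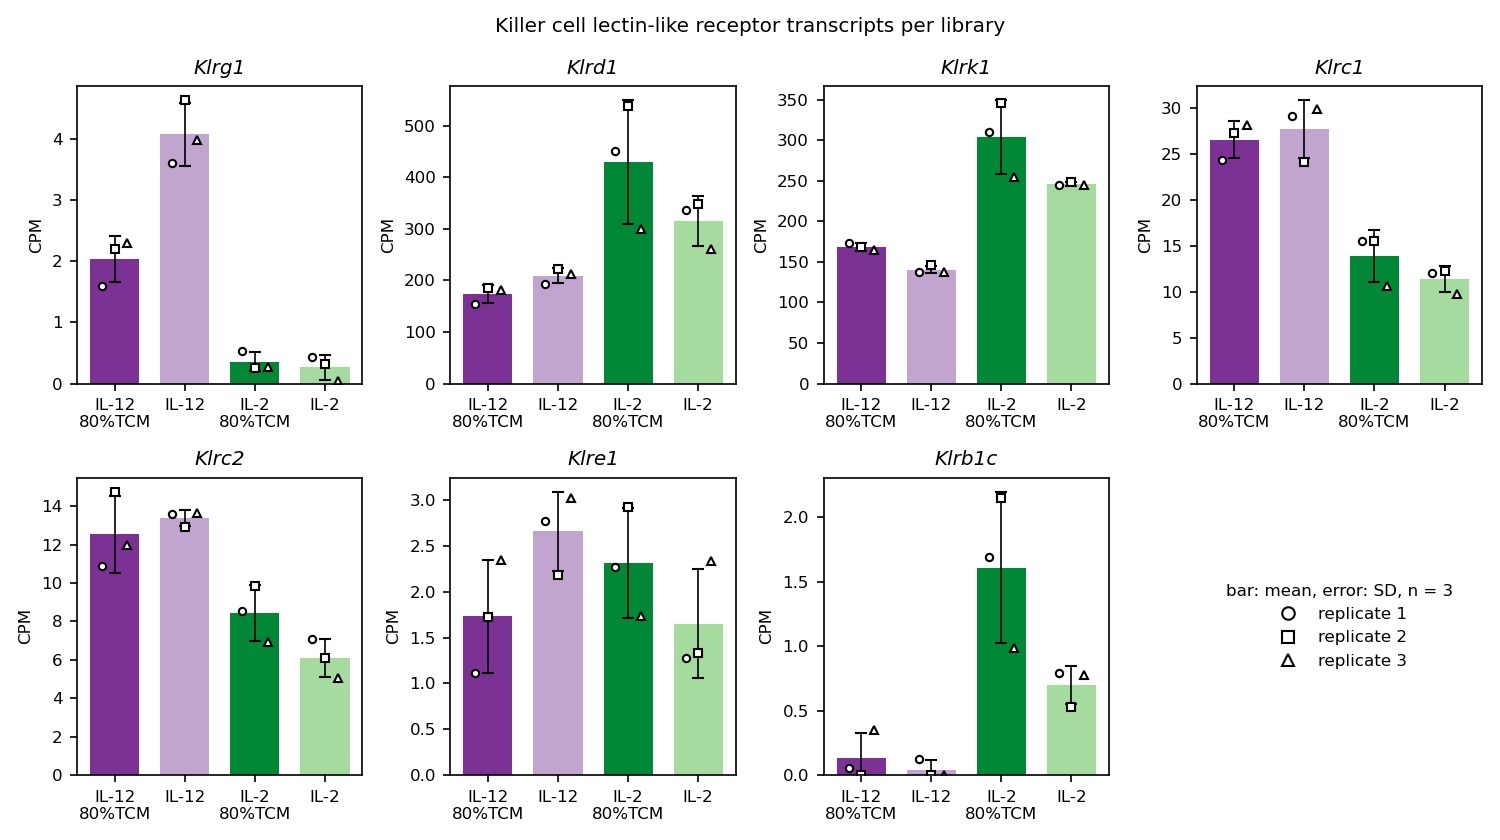
CPM of each receptor gene in the 12 libraries (y axis, linear, from 0), with bars for the group mean, error bars for the SD (n = 3) and 1 symbol per replicate number. Klrg1, Klrc1 and Klrc2 are higher in both IL-12 groups than in the IL-2 groups, and Klrd1, Klrk1 and Klrb1c are lower there.

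The first question was how IL-12 cultures differed from IL-2 cultures in the absence of TCM. Of the 7 receptors, 3 were higher (Klrg1, Klrc1, Klrc2), 3 were lower (Klrd1, Klrk1, Klrb1c) and Klre1 was not called, by the edgeR quasi-likelihood test with Benjamini-Hochberg adjustment over 15897 genes and a threshold of 0.05. The background is high in this comparison: 45.1% of all genes tested were called, 22.1% higher and 23% lower. The groups did not overlap for 6 of the 7 receptors, against 57.2% of all genes tested. Both counts include Klrg1 and Klrb1c, which add nothing to them because they passed the filter only through the groups where they were high. The median log2 fold change of the 7 was 0.65, against -0.01 over all genes tested.

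Klrg1, the effector marker, had 3.61, 4.63 and 3.98 CPM in IL-12 libraries, against 0.44, 0.32 and 0.043 CPM in IL-2 libraries. All 3 IL-12 libraries lay far above all 3 IL-2 libraries, and the IL-2 values rested on 10, 8 and 1 counts. The log2 fold change was 3.87 ± 0.37 (SE, edgeR adjusted p = 3e-06), a size that is uncertain because the IL-2 group is near 0. The log2 fold change was 3.39 without the replicates 3 of the IL-2 groups. With the replicate block for those groups it was 3.25. That fit sets IL-12 against the level of IL-2 replicate 1, the highest of its group. Over all 23 alternative settings the log2 fold change ran from 2.01 to 4.39 with every adjusted p under the threshold. The lowest of these values comes from the scale log2(CPM + 1), which understates changes of low genes. The 23 settings reuse the same counts, and Klrg1 passed the filter only through the IL-12 groups, so they add no support.

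The inhibitory chain Klrc1 had 29.1, 24.1 and 29.9 CPM in IL-12 libraries, against 12.1, 12.2 and 9.70 CPM in IL-2 libraries. The lowest IL-12 library was above the highest IL-2 library, and the log2 fold change was 1.27 ± 0.14 (SE, edgeR adjusted p = 1e-05). Its activating counterpart Klrc2 had 13.6, 12.9 and 13.7 CPM in IL-12 libraries, against 7.08, 6.12 and 5.07 CPM in IL-2 libraries. The groups again did not overlap, and Klrc2 rose by a log2 fold change of 1.11 ± 0.15 (SE, edgeR adjusted p = 5.2e-05).

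Klrd1, the partner chain of both, went the other way. It had 193, 222 and 212 CPM in IL-12 libraries, against 337, 348 and 260.1 CPM in IL-2 libraries. The highest IL-12 library was below the lowest IL-2 library, which was replicate 3, and the log2 fold change was -0.61 ± 0.16 (SE, edgeR adjusted p = 0.0077). Without the replicates 3 of the IL-2 groups it was -0.73. Transcripts of the inhibitory NKG2A chain and of its obligate partner thus changed in opposite directions.

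Klrk1, which encodes the activating receptor NKG2D, had 138, 146 and 138 CPM in IL-12 libraries, against 245, 249 and 245 CPM in IL-2 libraries. The values were tight within each group and widely separated between them. The log2 fold change was -0.83 ± 0.08 (SE, edgeR adjusted p = 3.1e-06), a 1.78-fold lower level.

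Klrb1c, the NK1.1 gene, had 0.13, 0 and 0 CPM in IL-12 libraries, against 0.79, 0.53 and 0.78 CPM in IL-2 libraries. These rest on 6 counts summed over the IL-12 libraries and 49 over the IL-2 libraries, and a count of 0 allows up to 0.0751 CPM in IL-12 replicate 2 and 0.151 CPM in IL-12 replicate 3, by counting error alone. The groups did not overlap, and the log2 fold change was -3.57 ± 0.79 (SE, edgeR adjusted p = 0.0027), a size that depends on the prior count of the fit because the IL-12 group is near 0. IL-12 replicate 1 held all 6 counts of its group, and without it the fitted value was -7.07 against a group at 0 (adjusted p = 0.0024). Without IL-12 replicate 2 it was -2.94 (adjusted p = 0.014). Klre1 had 2.78, 2.18 and 3.02 CPM in IL-12 libraries, against 1.28, 1.34 and 2.34 CPM in IL-2 libraries. Its groups overlapped through IL-2 replicate 3, with a log2 fold change of 0.65 ± 0.29 (SE, edgeR adjusted p = 0.086). The interval of that difference ran from 0.08 to 1.23 (95% by a normal quantile, unadjusted, and so narrower than the F test would give). Klre1 passed the threshold without the replicates 3 of the IL-2 groups (adjusted p = 0.0016, log2 fold change 0.98), without IL-2 replicate 3 (0.018, 0.99) and with no filter on low counts (0.019, 0.68). It also passed with the replicate block for the IL-2 groups (0.046, 0.82). That fit sets IL-12 against the level of IL-2 replicate 1, the lowest of its group, and not the IL-2 mean.

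**Figure D2:**
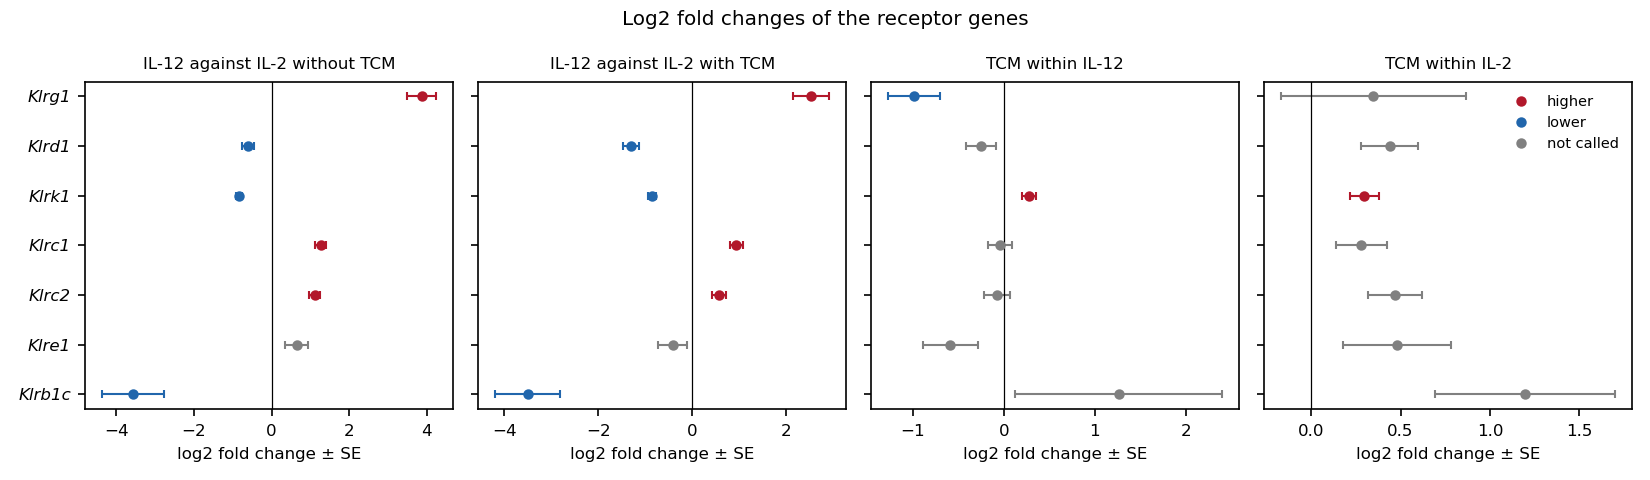
Log2 fold changes of the 7 receptor genes (x axis) with their standard errors in the 4 comparisons of groups, coloured by whether the gene was called higher, lower or not called by edgeR. The direction of the 6 called genes is the same in both comparisons of IL-12 with IL-2, and the TCM panels hold 2 calls and 1 call.

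The same comparison was made in the presence of TCM, where IL-12 80%TCM was set against IL-2 80%TCM. It uses other libraries than the comparison without TCM. The same 6 receptors were called, 3 higher and 3 lower, against a background of 39% of genes called, 19.5% higher and 19.4% lower. The groups did not overlap for 6 of the 7, against 50.1% of all genes. Klrg1 and Klrb1c are in both counts and add nothing to either, since they passed the filter only through the groups where they were high. The median log2 fold change of the 7 was -0.41, against -0.01 over all genes tested.

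Klrd1 had 155, 185 and 181 CPM in IL-12 80%TCM libraries, against 450.3, 537 and 299 CPM in IL-2 80%TCM libraries. All IL-12 80%TCM libraries were lower, although the IL-2 80%TCM libraries spread widely, with replicate 3 the lowest. The log2 fold change was -1.30 ± 0.16 (SE, edgeR adjusted p = 3.3e-05), a 2.47-fold lower level, and -1.52 without the replicates 3 of the IL-2 groups. Klrk1 had 173, 168 and 164 CPM in IL-12 80%TCM libraries, against 311, 346 and 255 CPM in IL-2 80%TCM libraries. It did not overlap between the groups and fell by 0.85 ± 0.08 on the log2 scale (SE, edgeR adjusted p = 2.3e-06).

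The NKG2 chains were higher here too. Klrc1 had 24.3, 27.3 and 28.1 CPM in IL-12 80%TCM libraries, against 15.5, 15.5 and 10.6 CPM in IL-2 80%TCM libraries (log2 fold change 0.94 ± 0.14 SE, edgeR adjusted p = 0.00014). Klrc2 had 10.9, 14.8 and 11.99 CPM in IL-12 80%TCM libraries, against 8.56, 9.87 and 6.95 CPM in IL-2 80%TCM libraries. Its groups did not overlap but came close, and its log2 fold change of 0.57 ± 0.15 (SE, edgeR adjusted p = 0.0079) lost its call without IL-12 80%TCM replicate 2, with a log2 fold change of 0.43 and an adjusted p of 0.059.

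Klrg1 had 1.60, 2.20 and 2.30 CPM in IL-12 80%TCM libraries, against 0.53, 0.26 and 0.28 CPM in IL-2 80%TCM libraries, which held 11, 7 and 7 counts. It rose by a log2 fold change of 2.54 ± 0.39 (SE, edgeR adjusted p = 0.00017). With the replicate block for the IL-2 groups the value was 1.87 (adjusted p = 0.00067), against the level of IL-2 80%TCM replicate 1 and not the group mean. Klrb1c had 0.053, 0 and 0.35 CPM in IL-12 80%TCM libraries, against 1.69, 2.15 and 0.99 CPM in IL-2 80%TCM libraries, on summed counts of 8 and 118. The 0 in IL-12 80%TCM replicate 2 allows up to 0.157 CPM. The groups were far apart, and the log2 fold change was -3.50 ± 0.70 (SE, edgeR adjusted p = 0.0014). Without IL-12 80%TCM replicate 3, which held 7 of the 8 counts, it was -5.70 (adjusted p = 0.00085).

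Klre1 had 1.12, 1.73 and 2.35 CPM in IL-12 80%TCM libraries, against 2.27, 2.93 and 1.74 CPM in IL-2 80%TCM libraries. The groups overlapped and the log2 fold change of -0.41 ± 0.31 was not called (SE, edgeR adjusted p = 0.31), although it passed without the replicates 3 of the IL-2 groups (log2 fold change -0.60, adjusted p = 0.045). Its sign there is opposite to that in the comparison without TCM.

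The ratio of the NKG2 chains to their partner Klrd1 was computed after the values above were seen and is given without a test. Per kilobase of exon, Klrc1 CPM came to 10.1, 9.51 and 10.03 for every 100 of Klrd1 in IL-12 80%TCM libraries and 9.72, 7.03 and 9.11 in IL-12 libraries, against 2.22, 1.86 and 2.29 in IL-2 80%TCM and 2.31, 2.27 and 2.41 in IL-2 libraries. The 6 IL-12 libraries lay apart from the 6 IL-2 libraries, and IL-2 replicates 3, which were low in both genes, had ratios close to their partners. Klrc2 averaged 1.59 ± 0.151 and 1.42 ± 0.134 per 100 of Klrd1 in IL-12 80%TCM and IL-12 libraries, against 0.445 ± 0.0581 and 0.427 ± 0.0380 in IL-2 80%TCM and IL-2 libraries (SD, n = 3 each). In each group Klrd1 was thus far above both chains per kilobase, and Klrc1 was above Klrc2. The size of these gaps depends on the exon lengths used, which are the union of all annotated exons. They span 5812 bases for Klrc2, 1984 for Klrc1 and 1281 for Klrd1. Undivided, Klrc1 averaged 27.7 CPM and Klrc2 13.4 CPM in IL-12 libraries.

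**Figure D3:**
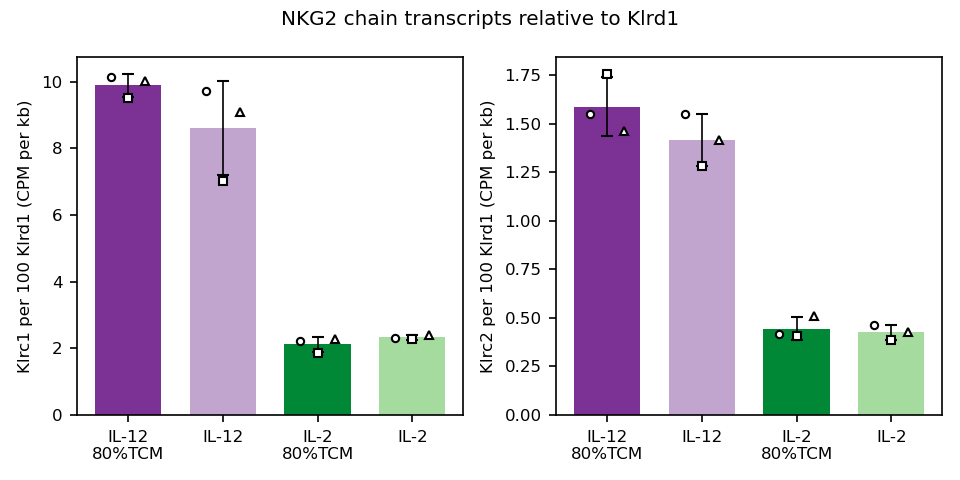
Klrc1 (left) and Klrc2 (right) per 100 Klrd1 (y axis, CPM per kb of exon, from 0) in each library, with bars for the group mean, error bars for the SD (n = 3), and circles, squares and triangles for replicates 1, 2 and 3. Klrc1 averages 9.89 and 8.62 in the IL-12 80%TCM and IL-12 groups, against 2.12 and 2.33 in the IL-2 80%TCM and IL-2 groups.

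TCM was then compared within IL-12 cultures, where IL-12 80%TCM was set against IL-12. Klrk1 rose and Klrg1 fell, and the other 5 receptors were not called, against a background of 29% of genes called, 14.8% higher and 14.2% lower. The groups did not overlap for 3 of the 7 (Klrg1, Klrd1 and Klrk1), against 52% of all genes. The median log2 fold change of the 7 was -0.08, against 0.01 over all genes tested. This comparison shares the IL-12 libraries with the comparison of cytokines without TCM and the IL-12 80%TCM libraries with the one with TCM.

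Klrg1 at 1.60, 2.20 and 2.30 CPM in IL-12 80%TCM libraries was below its 3.61, 4.63 and 3.98 CPM in IL-12 libraries in every library, a log2 fold change of -0.98 ± 0.29 (SE, edgeR adjusted p = 0.021) and a 1.98-fold lower level. The call was lost without IL-12 replicate 2 (log2 fold change -0.89, adjusted p = 0.084), IL-12 replicate 3 (-1.004, 0.051), IL-12 80%TCM replicate 1 (-0.86, 0.088) or IL-12 80%TCM replicate 2 (-1.05, 0.055), and by limma on log2(CPM + 0.1) (-0.98, 0.087). Klrk1 at 173, 168 and 164 CPM in IL-12 80%TCM libraries was above its 138, 146 and 138 CPM in IL-12 libraries, a log2 fold change of 0.28 ± 0.08 (SE, edgeR adjusted p = 0.02). Leaving out any of the 6 libraries took its adjusted p to between 0.053 and 0.097, with log2 fold changes of 0.24 to 0.29.

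Klrd1 was lower in each IL-12 80%TCM library than in any IL-12 library, at 155 to 185 against 193 to 222 CPM, but its log2 fold change of -0.25 ± 0.16 was not called (SE, edgeR adjusted p = 0.27). It was called lower with the replicate block for the IL-2 groups (adjusted p = 0.0068), without the replicates 3 of those groups (0.00073), with only the IL-12 groups in the fit (0.00046) and with no filter on low counts (0.0016). Klrc1 (log2 fold change -0.04 ± 0.13) and Klrc2 (-0.08 ± 0.14) overlapped between the groups, with 95% intervals from -0.31 to 0.22 and from -0.36 to 0.20. Klre1 (-0.59 ± 0.30) overlapped between the groups and was not called (edgeR adjusted p = 0.16), though it passed without the replicates 3 of the IL-2 groups (adjusted p = 0.029) and with only the IL-12 groups in the fit (0.034). Klrb1c was near 0 in both groups, on 8 and 6 counts, and could not be judged in this comparison.

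TCM within IL-2 cultures gave a single call, for Klrk1. It had 311, 346 and 255 CPM in IL-2 80%TCM libraries, against 245, 249 and 245 CPM in IL-2 libraries, so even the lowest TCM library was above all IL-2 libraries. The log2 fold change was 0.30 ± 0.08 (SE, edgeR adjusted p = 0.025), beside 0.28 in the IL-12 cultures. Of all genes tested, 14.5% were called, 6.73% higher and 7.82% lower. The groups did not overlap for 2 of the 7 receptors, against 27.3% of all genes, and the median log2 fold change of the 7 was 0.44, against 0.00 over all genes tested. The Klrk1 call was lost without IL-2 replicate 1 (log2 fold change 0.30, adjusted p = 0.075), IL-2 replicate 2 (0.31, 0.070), IL-2 80%TCM replicate 1 (0.29, 0.064) or IL-2 80%TCM replicate 2 (0.21, 0.091), and with only the IL-2 groups in the fit (0.29, 0.16).

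The calls in the IL-2 cultures changed with how the replicates 3 were treated. With the replicate block for the IL-2 groups, 5 receptors were called higher with TCM instead of 1, and 4442 of all genes instead of 2313. Klrd1 had a log2 fold change of 0.44 ± 0.16 without the block (SE, edgeR adjusted p = 0.086) and 0.41 with it (adjusted p = 0.00012). Klrc2 had 0.47 ± 0.15 without the block (adjusted p = 0.055) and 0.47 with it (adjusted p = 0.0047), and Klrc1 had 0.28 ± 0.14 (adjusted p = 0.22) and 0.28 (adjusted p = 0.039). Klrb1c, at 1.69, 2.15 and 0.99 CPM in IL-2 80%TCM libraries against 0.79, 0.53 and 0.78 CPM in IL-2 libraries, did not overlap between the groups and had 1.20 ± 0.50 without the block (adjusted p = 0.14) and 1.18 with it (adjusted p = 0.034). In each of Klrd1, Klrc1 and Klrc2, replicate 3 was the lowest library of its group in both IL-2 groups, and each same-numbered pair had the higher value with TCM. Of the alternative settings, 8 of 23 called Klrc2, 5 of 23 Klrd1, 3 of 23 Klrc1 and 4 of 22 Klrb1c. Leaving out IL-2 80%TCM replicate 3 alone called Klrd1 (log2 fold change 0.65, adjusted p = 0.0013), Klrc1 (0.45, 0.022) and Klrc2 (0.60, 0.015), and leaving out IL-2 replicate 1 called Klrc2 (0.60, 0.048).

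Without the replicates 3 of the IL-2 groups, 3936 of all genes were called in either direction instead of 2313. Of the receptors, 6 were then called higher with TCM, with Klre1 added (log2 fold change 1.004, adjusted p = 0.0086). Klrg1 was the exception. Its 0.53, 0.26 and 0.28 CPM in IL-2 80%TCM libraries overlapped 0.44, 0.32 and 0.043 CPM in IL-2 libraries, and its log2 fold change of 0.35 ± 0.52 was not called (SE, edgeR adjusted p = 0.70) and changed sign to -0.0032 without those replicates. On 25 and 19 summed counts, its 95% interval ran from -0.66 to 1.36.

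The last comparison asked whether the effect of TCM differed between the cytokines, as the change within IL-12 minus the change within IL-2. By edgeR none of the 7 receptors was called, against a background of 1.58% of genes called, 1.19% higher and 0.39% lower. DESeq2 and limma each called 0. The median of the 7 was -0.55, against 0.00 over all genes tested. The difference was -1.33 ± 0.59 for Klrg1 (SE, edgeR adjusted p = 0.32), -0.69 ± 0.23 for Klrd1 (adjusted p = 0.17) and -0.02 ± 0.11 for Klrk1 (adjusted p = 0.97, 95% interval -0.24 to 0.20).

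With the replicate block for the IL-2 groups, the difference was called for 1668 of all genes instead of 251. Among the receptors it was called for Klrd1 (-0.66, adjusted p = 0.00011) and Klrc2 (-0.55, adjusted p = 0.027). Without the replicates 3 of those groups it was called for 2105 of all genes. The receptors called were then Klrd1 (-0.79, adjusted p = 8.7e-07), Klrc1 (-0.39, adjusted p = 0.047), Klrc2 (-0.58, adjusted p = 0.020) and Klre1 (-1.58, adjusted p = 0.0025). In each of these 4 genes the mean was higher with TCM within IL-2 and lower with TCM within IL-12. Leaving out IL-2 80%TCM replicate 3 alone was enough for the calls of Klrd1 (-0.91, adjusted p = 0.0024) and Klrc2 (-0.69, adjusted p = 0.045), and with no filter on low counts Klrd1 was called (-0.71, adjusted p = 2.5e-10). All genes called were 1164 and 779 under these settings.

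By group, the order of the levels was not the same for all receptors. Klrg1 ran from IL-12 to IL-12 80%TCM to the IL-2 groups, which overlapped. Klrc1 and Klrc2 were highest in the IL-12 and IL-12 80%TCM groups, which overlapped, and lowest in the IL-2 80%TCM and IL-2 groups, which also overlapped. Klrk1 was the only receptor with 4 groups that did not overlap, in the order IL-2 80%TCM, IL-2, IL-12 80%TCM and IL-12. Klrd1 had the IL-2 groups above and the IL-12 groups below, and Klrb1c ran from IL-2 80%TCM to IL-2 to the IL-12 groups, both near 0.

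The signalling partners of these receptors were counted from a list of 5 genes, of which 4 were tested. Each count of a list is given beside the share of all genes tested that were called in that direction, and is not tested against it. In IL-12 against IL-2 cultures without TCM, 3 of the 4 were lower and 0 higher, against 23% of all genes lower and 22.1% higher, with a list median of -0.56 on the log2 scale. Hcst, which encodes the NKG2D adapter DAP10, averaged 19.2 ± 0.914 CPM in IL-12 libraries and 25.0 ± 0.101 CPM in IL-2 libraries (SD, n = 3 each), a log2 fold change of -0.41 ± 0.07 (SE, edgeR adjusted p = 0.00039). It was lower as Klrk1 was. Tyrobp, which encodes the adapter DAP12 used by NKG2C, averaged 0.562 ± 0.0613 CPM in IL-12 and 0.938 ± 0.0950 CPM in IL-2 libraries (SD, n = 3 each). Its log2 fold change of -0.74 ± 0.22 (SE, edgeR adjusted p = 0.016) went opposite to Klrc2, and the call was lost in 5 of 22 alternative settings, among them those without IL-2 replicate 3 (adjusted p = 0.065) and without IL-12 replicate 1 (adjusted p = 0.056). Fcer1g, an adapter of activating receptors, was lower by a log2 fold change of -0.72 ± 0.18 (edgeR adjusted p = 0.0061). The 6 myeloid markers summed to 3.27 to 4.43 CPM in IL-12 and 8.10 to 10.2 CPM in IL-2 libraries. The part of myeloid cells in the Tyrobp and Fcer1g results was not tested.

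With TCM present, 2 of these 4 genes were lower in IL-12 80%TCM than in IL-2 80%TCM cultures and 0 were higher, against 19.4% and 19.5% of all genes. They were Fcer1g (log2 fold change -0.80 ± 0.21 SE, edgeR adjusted p = 0.0096) and Hcst (-0.24 ± 0.07 SE, adjusted p = 0.015). The Hcst call was lost with no filter on low counts (adjusted p = 0.068) and without IL-2 80%TCM replicate 2 (-0.19, adjusted p = 0.062). It was also lost with the replicate block for the IL-2 groups (adjusted p = 0.09), which here compares with the level of IL-2 80%TCM replicate 1. The TCM effect on Hcst matched that on Klrk1 in sign in both cytokines. Hcst rose by a log2 fold change of 0.45 ± 0.07 within IL-12 (SE, edgeR adjusted p = 0.00049) and 0.28 ± 0.07 within IL-2 (adjusted p = 0.015, and 0.052 without IL-2 replicate 2, 0.060 without IL-2 80%TCM replicate 2 and 0.11 with only the IL-2 groups in the fit).

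TCM gave 1 higher (Hcst) and 1 lower of the 4 within IL-12, against 14.8% of all genes higher and 14.2% lower. There Fcer1g had a log2 fold change of -0.64 ± 0.21 (SE, edgeR adjusted p = 0.036). That Fcer1g call was lost in 6 of 23 alternative settings, with adjusted p up to 0.15, among them those without IL-12 replicate 1 or 2 or IL-12 80%TCM replicate 2 or 3. Within IL-2 it gave 2 higher and 0 lower, against 6.73% and 7.82% of all genes. Klri2, the partner chain of Klre1, rose with TCM in IL-2 cultures to 2.63 ± 0.201 CPM, against 1.64 ± 0.140 CPM in IL-2 libraries (SD, n = 3 each). Its log2 fold change was 0.67 ± 0.19 (SE, edgeR adjusted p = 0.034). The call was lost without IL-2 replicate 1 (adjusted p = 0.11), IL-2 replicate 2 (adjusted p = 0.086), IL-2 80%TCM replicate 1 (adjusted p = 0.078) or IL-2 80%TCM replicate 2 (adjusted p = 0.074), and with only the IL-2 groups in the fit (adjusted p = 0.081). Klri1, the other partner, averaged 0.292 CPM over the 12 libraries and was not tested.

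Ligands were counted from a list of 14 symbols, of which 11 matched the table and 6 were tested. The table measures them in the T cells themselves, not in target cells. In IL-12 against IL-2 cultures, 2 were higher and 2 lower without TCM (median 0.08), against 22.1% and 23% of all genes. With TCM, 2 were higher and 0 lower (median 0.0016), against 19.5% and 19.4%. Ulbp1, the gene of the NKG2D ligand MULT1, averaged 272 ± 10.9 CPM in IL-12 and 179.9 ± 11.7 CPM in IL-2 libraries (SD, n = 3 each, log2 fold change 0.58 ± 0.07 SE, edgeR adjusted p = 3.8e-05). It rose where its receptor gene Klrk1 fell. With TCM present Ulbp1 was higher by 0.43 ± 0.07 (edgeR adjusted p = 0.00046). Clec2i, whose product is a ligand of NKR-P1 receptors, was higher in both comparisons, by 0.81 ± 0.07 without TCM (edgeR adjusted p = 1.6e-06) and 0.66 ± 0.07 with TCM (adjusted p = 9.2e-06).

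H2-T23, the gene of the Qa-1 heavy chain that CD94 pairs with NKG2A or NKG2C bind, averaged 445 ± 23.8 CPM in IL-12 and 551 ± 4.88 CPM in IL-2 libraries (SD, n = 3 each). The log2 fold change was -0.33 ± 0.06 (SE, edgeR adjusted p = 0.00077). With TCM present its difference was -0.06 ± 0.06 and was not called (adjusted p = 0.47). Among KLRG1 ligands, Cdh2 and Cdh4 averaged 0.013 and 0.0094 CPM over the 12 libraries. Cdh1, named after its values were seen, had 0.746, 0.785 and 0.999 CPM in IL-12 80%TCM libraries, against 0.774, 0.371 and 7.66 CPM in IL-2 80%TCM libraries. It had 1.84, 1.83 and 1.56 CPM in IL-12 libraries, against 4.84, 4.42 and 18.4 CPM in IL-2 libraries, so that replicate 3 was the highest of both IL-2 groups. Without TCM it was called lower in IL-12, opposite to Klrg1 (log2 fold change -2.42 ± 0.79 SE, edgeR adjusted p = 0.023), and with TCM it was not called (-1.81 ± 0.97, adjusted p = 0.16). The call without TCM was lost without IL-2 replicate 3 (-1.41, adjusted p = 0.15) or IL-12 replicate 1, 2 or 3 (adjusted p = 0.072, 0.066 and 0.064). The difference without TCM was -1.40 on the log2 scale without the replicates 3 of the IL-2 groups (adjusted p = 4.9e-07). With the replicate block for those groups it was -1.31 (adjusted p = 0.001), against the level of IL-2 replicate 1 and not the IL-2 mean.

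TCM within IL-12 gave 2 ligand genes higher and 1 lower, against 14.8% and 14.2% of all genes. H2-T23 rose by a log2 fold change of 0.36 ± 0.06 (SE, edgeR adjusted p = 0.00096), Clec2i rose by 0.42 ± 0.07 (adjusted p = 0.001), and Ulbp1 had a log2 fold change of -0.31 ± 0.07 (adjusted p = 0.0067). Within IL-2, 2 were higher and 0 lower, against 6.73% and 7.82% of all genes. They were Clec2i (0.57 ± 0.07 SE, edgeR adjusted p = 0.00038) and Clec2d (0.60 ± 0.15, adjusted p = 0.018). Clec2d had 52.9, 76.7 and 44.3 CPM in IL-2 80%TCM libraries, against 41.4, 40.02 and 32.95 CPM in IL-2 libraries, and its call was lost with only the IL-2 groups in the fit (adjusted p = 0.13).

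Further lectin-like receptor genes of the NK gene complex were taken from a list of 32 symbols, of which 31 matched and 13 were tested. Against IL-2, 8 of the 13 were higher in IL-12 cultures and 0 lower, against 22.1% and 23% of all genes, with a list median of 1.32 on the log2 scale, against -0.01 over all genes tested. Some of the 13, Klra9 and Klra3 among them, passed the filter only through the IL-12 groups, where they are high, so count and median are a description alone. Most are Ly49 (Klra) genes, which encode receptors for class I molecules on NK cells and are so alike that the counting may have split reads between them. The 3 with the smallest p were Cd69, Klrb1f and Klra7. Cd69, an early activation marker of T cells, averaged 56.5 ± 3.47 CPM in IL-12 and 30.7 ± 5.46 CPM in IL-2 libraries (SD, n = 3 each, log2 fold change 0.86 ± 0.12 SE, edgeR adjusted p = 6.5e-05). Klra7 averaged 6.48 ± 0.302 and 2.25 ± 0.723 CPM in the same order (a 2.82-fold higher level, log2 SE 0.24, adjusted p = 0.00022), and Klrb1f, of the same family as Klrb1c, averaged 5.40 ± 1.35 and 2.10 ± 0.287 CPM (1.32 ± 0.20 SE, adjusted p = 0.00014). Klrb1f and Klrb1c therefore moved in opposite directions.

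With TCM present, 5 of these 13 genes were higher in IL-12 80%TCM than in IL-2 80%TCM cultures and 0 lower, against 19.5% and 19.4% of all genes, with a median of 0.43. The 3 with the smallest p were Klrb1f (log2 fold change 1.90 ± 0.21 SE, edgeR adjusted p = 1.2e-05), Klra9 (2.47 ± 0.44, adjusted p = 0.00063) and Klra3 (1.95 ± 0.52, adjusted p = 0.0099). Klra9 rested on 15, 11 and 15 counts in IL-12 80%TCM libraries and 4, 4 and 1 in IL-2 80%TCM libraries, and Klra3 on 14, 10 and 14 against 8, 2 and 2, so the sizes of both are uncertain. Because Klra9 and Klra3 passed the filter only through the IL-12 groups, their calls add nothing to the count of 5. TCM within IL-12 left 0 higher and 6 lower, against 14.8% and 14.2% of all genes, with a median of -0.81 against 0.01 over all genes. Klra6 averaged 1.07 ± 0.200 CPM in IL-12 80%TCM and 2.40 ± 0.408 CPM in IL-12 libraries (SD, n = 3 each, log2 fold change -1.13 ± 0.24 SE, edgeR adjusted p = 0.0042). Clec12a, a lectin-like receptor of myeloid cells, had the smallest p (log2 fold change -2.62 ± 0.37 SE, adjusted p = 0.00029), on 2, 8 and 6 counts in IL-12 80%TCM libraries against 86, 58 and 39 in IL-12 libraries. The 6 myeloid markers summed to 1.52 to 2.10 CPM in IL-12 80%TCM and 3.27 to 4.43 CPM in IL-12 libraries, whose part in the result was not tested.

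Within IL-2, 0 of these 13 were higher and 2 were lower with TCM, against 6.73% and 7.82% of all genes. Clec12a had a log2 fold change of -1.23 ± 0.34 (SE, edgeR adjusted p = 0.028) and Klrb1f one of -0.77 ± 0.22 (adjusted p = 0.036). The Klrb1f call was lost in 9 of 23 alternative settings and the Clec12a call in 5 of 22, with adjusted p up to 0.14 in both. Among the libraries compared, the Klrb1f call ended without IL-2 80%TCM replicate 1 or 3 or IL-2 replicate 1 or 2, and the Clec12a call without IL-2 80%TCM replicate 1 or 2 or IL-2 replicate 2. Of 5 innate-like T cell markers, 3 were higher in IL-12 than in IL-2 libraries (Trdc, Zbtb16 and Il23r) and 1 was lower (Sox13), the Trdc call being lost in 9 of 23 alternative settings, with adjusted p of 0.16 without IL-2 replicate 3 and 0.13 without IL-12 replicate 1 or 3. Sox13, named after its values were seen, had a log2 fold change of -0.72 ± 0.27 (SE, edgeR adjusted p = 0.042), and its call was lost in 14 of 23 alternative settings with adjusted p up to 0.21, among them those without IL-12 replicate 1 or 2 or IL-2 replicate 2 or 3. The 5 genes summed to 40.4 to 48.5 CPM in IL-12 and 26.0 to 37.4 CPM in IL-2 libraries, and its part in the result was not tested.

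**Figure D4:**
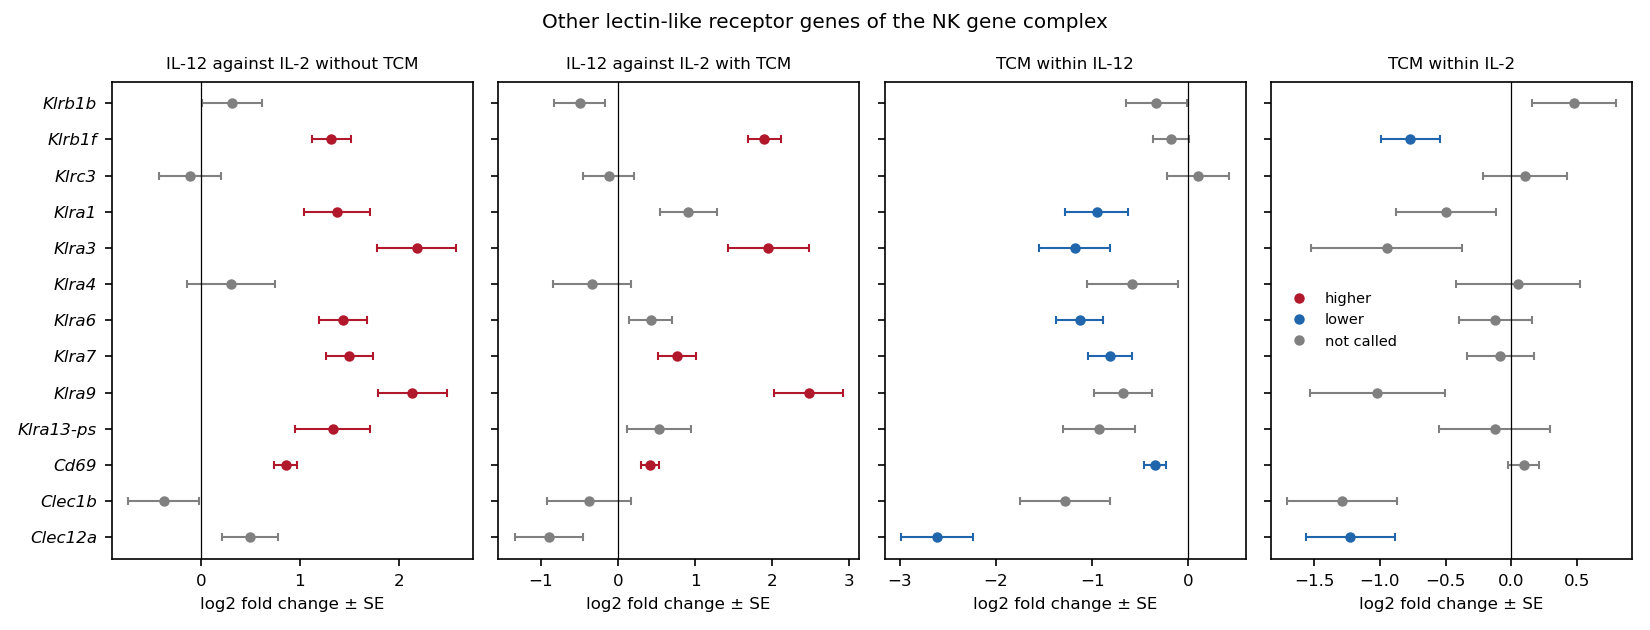
Log2 fold changes with standard errors (x axis) of the 13 tested genes of the list of other lectin-like receptors in the 4 comparisons of groups, coloured by the edgeR call. Against IL-2, 8 are higher without TCM and 5 with TCM, and within IL-12 6 are lower with TCM. Some of them, Klra9 and Klra3 among them, passed the filter only through the IL-12 groups.

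Genes known to go with KLRG1 on effector CD8+ T cells were counted from a list of 12, of which 11 were tested. In IL-12 against IL-2 cultures without TCM, 4 were higher and 2 lower, against 22.1% and 23% of all genes, with a list median of 0.38. Gzmk, a granzyme gene (log2 fold change 1.36 ± 0.15 SE, edgeR adjusted p = 1.1e-05), Zeb2, the gene of a repressor that promotes terminal effector differentiation (0.81 ± 0.11, adjusted p = 6.8e-05), and Tbx21, the gene of the effector factor T-bet (0.80 ± 0.13, adjusted p = 0.00026), were higher as Klrg1 was. With TCM, 6 were higher and 1 lower, against 19.5% and 19.4%, with a median of 0.42. Zeb2 (0.93 ± 0.11 SE, edgeR adjusted p = 2.7e-05) and Tbx21 (0.95 ± 0.13, adjusted p = 6.7e-05) were among them, and the adhesion gene Itga4 was the lower one (-0.72 ± 0.09, adjusted p = 2.5e-05).

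TCM within IL-12 left 2 of the 11 higher and 5 lower, against 14.8% and 14.2% of all genes. Gzmb, the granzyme B gene, was higher (log2 fold change 1.17 ± 0.20 SE, edgeR adjusted p = 0.00099). The chemokine gene Ccl5 (-0.65 ± 0.11, adjusted p = 0.001) and the effector marker Cx3cr1 (-1.28 ± 0.23, adjusted p = 0.0015) were lower as Klrg1 was. Within IL-2, 0 were higher and 2 lower, against 6.73% and 7.82% of all genes, again Ccl5 (-0.69 ± 0.11 SE, edgeR adjusted p = 0.0019) and Cx3cr1 (-1.18 ± 0.25, adjusted p = 0.0081, and 0.065 with only the IL-2 groups in the fit). Klrg1 itself was not called there.

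Of 11 genes of the memory precursor list, 2 were higher and 7 lower in IL-12 than in IL-2 cultures, both without TCM (list median -0.58, against 22.1% of all genes higher and 23% lower) and with TCM (-0.56, against 19.5% and 19.4%). Bcl2, a survival gene (log2 fold change -1.31 ± 0.05 SE without TCM, edgeR adjusted p = 2.7e-10), and Eomes, a T-box factor of memory cells (-1.10 ± 0.10, adjusted p = 1.7e-06), led it without TCM. Of 18 transcription factor genes, 3 were higher and 7 lower without TCM (median -0.14), and 7 higher and 8 lower with TCM (median 0.10), beside the same shares of all genes. Gata3 averaged 18.7 ± 0.619 CPM in IL-12 and 56.7 ± 1.25 CPM in IL-2 libraries (SD, n = 3 each), the smallest p of that list (log2 fold change -1.62 ± 0.06 SE, adjusted p = 3.5e-10). Id2, which is needed for effector CD8+ T cells, was higher (1.03 ± 0.11, adjusted p = 7.3e-06).

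With TCM, 2 of the 18 transcription factor genes were higher and 2 lower within IL-12, against 14.8% and 14.2% of all genes, and 1 was higher and 3 lower within IL-2, against 6.73% and 7.82%. Zfp683, the gene of the tissue residency factor Hobit, was lower in both, at 2.94 ± 0.107 CPM in IL-12 80%TCM against 9.95 ± 0.782 CPM in IL-12 libraries and at 4.94 ± 1.46 CPM in IL-2 80%TCM against 10.6 ± 3.17 CPM in IL-2 libraries (SD, n = 3 each). Its log2 fold changes were -1.74 ± 0.24 (SE, edgeR adjusted p = 0.00023) and -1.10 ± 0.22 (adjusted p = 0.006, and 0.07 with only the IL-2 groups in the fit). Runx3, a factor of cytotoxic T cells, was higher with TCM in IL-12 cultures (0.50 ± 0.07 SE, adjusted p = 0.00024).

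Signalling genes downstream of the receptors were taken from a list of 15, all tested. IL-12 against IL-2 gave 6 higher and 4 lower without TCM (median 0.01), against 22.1% and 23% of all genes, and 7 higher and 4 lower with TCM (median 0.11), against 19.5% and 19.4%. The kinase genes Fyn (log2 fold change 0.95 ± 0.05 SE without TCM, edgeR adjusted p = 8.2e-09) and Lck (0.35 ± 0.04, adjusted p = 3.8e-05) and the phospholipase gene Plcg2 (2.02 ± 0.13, adjusted p = 4.5e-08) were higher. TCM gave 2 higher and 2 lower in each cytokine, against 14.8% and 14.2% of all genes within IL-12 and 6.73% and 7.82% within IL-2. Ptpn6, the gene of the phosphatase SHP-1 that inhibitory receptors recruit, averaged 164.8 ± 2.96 CPM in IL-12 80%TCM against 235 ± 5.59 CPM in IL-12 libraries and 145 ± 2.36 CPM in IL-2 80%TCM against 207 ± 11.5 CPM in IL-2 libraries (SD, n = 3 each). It was lower by -0.49 ± 0.05 within IL-12 (SE, edgeR adjusted p = 1.8e-05) and by -0.52 ± 0.05 within IL-2 (adjusted p = 4e-05) on the log2 scale.

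Of 12 other NK-type receptor genes, 2 were higher and 7 lower in IL-12 than in IL-2 cultures without TCM (median -0.36), against 22.1% and 23% of all genes, and 3 higher and 7 lower with TCM (median -0.49), against 19.5% and 19.4%. Cd226, which encodes the activating receptor DNAM-1, was lower in both (log2 fold change -0.75 ± 0.06 SE, edgeR adjusted p = 7.9e-07 without TCM, and -1.07 ± 0.06, adjusted p = 2.1e-08 with TCM). It was lower as Klrk1 was. TCM gave 2 higher and 1 lower within IL-12, against 14.8% and 14.2% of all genes, where Cd96, a receptor for the same ligand family as DNAM-1, was the lower one (-0.62 ± 0.09, adjusted p = 0.00033). Within IL-2 it gave 1 higher and 1 lower, against 6.73% and 7.82%.

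The genes most like each receptor across the 12 libraries were ranked by the root mean square difference of log2(CPM + 1), each gene centred on its own mean, among 9349 named genes whose mean reached 5 CPM. The added 1 flattens the low genes Klrg1, Klre1 and Klrb1c, so a gene near one of them on this scale need not change by a like fold. The nearest to Klrg1 were Pim2 (difference 0.21), Lrig1 (0.22) and Ust (0.24), against a spread of 0.85 for Klrg1 itself. Pim2 averaged 692 CPM in IL-12 and 226 CPM in IL-2 libraries, a smaller ratio than that of Klrg1. Spo11 (0.12), Cd5 (0.14) and Filip1l (0.17) came nearest to Klrd1, whose own spread was 0.54. Klrk1, with a spread of 0.44, was most like Hsdl2 (0.094), Selenop (0.095) and Tgtp2 (0.098).

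For Klrc1 the nearest were Cycs (0.11), Il6st (0.12) and Cd28 (0.13), and for Klrc2 they were Alad (0.13), Glipr1 (0.14) and Cd53 (0.15). Their own spreads were 0.56 and 0.44. The nearest to Klrb1c were Btg2 (0.17), Sh2d1a (0.18) and Klrk1 (0.20), against its spread of 0.55. Btg2 averaged 38.8 CPM in IL-12 and 74.5 CPM in IL-2 libraries and fell short of the ratio of Klrb1c. Klre1, which had the smallest spread on this scale, was no closer than 0.21 to any gene (Ier3ip1, then Sgo2a at 0.21 and Fam118a at 0.22) with a spread of 0.30. These are descriptions over 12 libraries of 4 groups, and any gene that differs between the cytokines in the same way will rank high.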

How the data were processed

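RNA of CD8+ T cells was sequenced as stranded total RNA libraries (NEBNext Ultra II Directional), per the labels' protocols. The extraction text there speaks of livers of bortezomib-treated mice, which no sample label names. The authors aligned reads with STAR 2.7.7a and name edgeR, per the submitters' processing notes. These give the human build GRCh38, although the identifiers are those of mouse. Whether counting used strand is not stated in those sources. The authors deposited raw counts per gene and, per library, a signal that equals the counts per 1000000 (CPM) of library sizes after TMM scaling. Printed levels are those CPM.

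Counts were filtered with filterByExpr (minimum count 10, minimum total 15), leaving 15897 of 55487 genes. They were scaled by TMM and fitted in edgeR 4.0.16 with a mean for each group, all 12 libraries sharing the estimate of spread (common biological coefficient of variation 0.104), and tested by quasi-likelihood F tests. Benjamini-Hochberg adjustment covered every gene tested, at a threshold of 0.05. Standard errors are the log2 fold change over the root of F. They and the fold changes of genes near 0 depend on the prior count. The fit was tested on simulated data. A name table supplied beside the files gave the symbols, and exon lengths from GENCODE M21.

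The 7 receptors, 15 gene lists (143 of 147 symbols matched) and the tests were chosen with earlier results of these data known. Of each list, up to 3 called genes per comparison with the smallest p were open to naming, and genes outside that rule are said to be so or serve as markers. A list holds counts of genes called and its median, with no test of the list. Alternatives were upper-quartile scaling or size factors as in DESeq2, no filter or a filter at a mean of 1 CPM, the DESeq2 1.42.0 test, limma 3.58.1 on log2(CPM + 1) or log2(CPM + 0.1), only the groups compared, replicate number as a block, and libraries left out. The replicate numbers come from the labels. Same-numbered IL-2 80%TCM and IL-2 libraries deviated together, with correlations of 0.43, 0.40 and 0.68 over genes, so their numbers were taken to pair them. Replicates 1 and 2 of these groups correlated as much across numbers (0.41 and 0.45). The other pairs of groups had correlations of -0.09 to 0.13 and were not taken as paired.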

Additional observations from a re-analysis of the deposited data

Results flagged for a closer look

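The receptors themselves gave no such result, and 6 genes of the lists differed in their TCM effect between IL-12 and IL-2 by the edgeR interaction term with Benjamini-Hochberg adjustment. The values are the log2 change with TCM within IL-12 minus that within IL-2. Plcg2, a signalling phospholipase gene, had 0.96 ± 0.18 (SE, adjusted p = 0.016). Runx3 had 0.55 ± 0.10 (adjusted p = 0.014), and Bcl2 had 0.35 ± 0.07 (adjusted p = 0.018). Itga2, an integrin gene of the NK cell marker list, had 0.74 ± 0.17 (adjusted p = 0.048). Lilrb4a, an inhibitory receptor gene, had 0.71 ± 0.15 (adjusted p = 0.04). Itgax, an integrin gene of the myeloid marker list, had -1.47 ± 0.29 (adjusted p = 0.025). Runx3 kept its call in every alternative setting. The call was lost in 12 of 22 settings for Itga2, 11 for Lilrb4a, 10 for Bcl2, 8 for Plcg2 and 4 for Itgax, with adjusted p of at most 0.15 there, most often when 1 library was left out.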

How the results depend on the processing

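In the comparisons of IL-12 with IL-2, 6 receptors kept their direction and their side of the threshold in all alternatives that gave a value, except Klrc2 with TCM without IL-12 80%TCM replicate 2. Klrg1 and Klrb1c are among the 6 and add nothing to that count, since they passed the filter only through the groups where they were high. The TCM results did not hold as well. For TCM within IL-2, 1 receptor was called, and 2 with upper-quartile scaling, DESeq2 or limma on log2(CPM + 1), 4 with no filter on low counts, 0 with only the groups compared, 3 with the replicate block over all samples, 5 with the replicate block for the IL-2 groups, 6 without the replicates 3 of both IL-2 groups, and 0 to 4 with each library left out. All genes called were 2313, and 587 with only the groups compared, 4442 with the replicate block for the IL-2 groups, 3936 without those replicates 3, and 1292 to 2938 with each library left out. For TCM within IL-12, 2 receptors were called, and 1 with limma on log2(CPM + 0.1), 4 with only the groups compared, 4 without the replicates 3 of the IL-2 groups, and 0 to 2 with each library left out. All genes called were 4617, and 7133, 7332 and 2931 to 5697 under the last 3 of these settings. For the difference of the TCM effect, 0 receptors were called, and 1 with no filter, 2 with the replicate block for the IL-2 groups, 4 without the replicates 3 of those groups, and 0 to 2 with each library left out. All genes called were 251, and 779 with no filter, 550 with DESeq2, 1668 with that replicate block, 2105 without those replicates 3, and 105 to 1164 with each library left out. The cause was not tested, beyond the smaller number of libraries when any is left out. The replicate block changed no other call of a receptor than those given beside the results.

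Signs reversed only for values that were not called. With each library left out, log2 values ran from -0.14 to 0.87 for Klrg1 and TCM within IL-2, from -0.15 to 0.0076 for Klrc1 and from -0.93 to 4.76 for Klrb1c and TCM within IL-12, and from -0.15 to 0.060 for Klrk1 and from -2.13 to 3.56 for Klrb1c and the difference. Without the replicates 3 of both IL-2 groups, Klrg1 for TCM within IL-2 had -0.0032 and Klrb1c for the difference had -0.31. By limma with 1 or 0.1 added, Klrb1c for the difference had -0.49 and -0.52. Of 3174 repeats of named list genes, 194 lost the call and 0 reversed. Counts of Klrg1 in IL-2 and of Klrb1c in IL-12 libraries limit what can be seen there.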
